A study of Mus musculus with 15 samples.

Results

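The 6 genes that encode the peroxisome proliferator-activated receptors (Ppara, Ppard and Pparg) and the retinoid X receptors (Rxra, Rxrb and Rxrg) were followed in differentiated mouse adipocytes given forskolin or rosiglitazone. They were chosen by symbol from the 24421 genes of the count table, and all 6 had enough counts to be tested among 14421 genes. The cells were MAP cells, a line of immortalized progenitors of mouse fat cells. At confluence every group, vehicle included, was induced for 2 days with insulin, isobutylmethylxanthine, dexamethasone and 1 µM rosiglitazone, and then kept for 2 days in insulin and 1 µM rosiglitazone. Treatment began at day 7 to 8. The 5 groups of 3 libraries were vehicle, forskolin at 4 h (here FSK4h), at 1 day (FSK1D) and at 3 days (FSK3D), and rosiglitazone at 3 days (Rosi3D). Forskolin activates adenylyl cyclase and so raises cyclic AMP, and rosiglitazone is a synthetic agonist of PPARγ. All libraries came from the same line, so the groups are a model of 1 cell population. The sources used here do not give the doses of the final treatments or when vehicle cells were harvested. Since every treatment began at day 7 to 8, forskolin groups of different times may also differ in days of culture. Between forskolin times, and against the shared vehicle group, treatment and days in culture therefore cannot be told apart. Verbs such as raised, lowered, rose and fell name only the direction of a difference between groups.

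PPARs are nuclear receptors that bind fatty acids and their derivatives and act on DNA as heterodimers with an RXR, at repeats of the hexamer AGGTCA spaced by a single base. PPARγ drives adipocyte differentiation and is the target of the thiazolidinedione drugs. PPARα is known for the control of fatty acid oxidation in liver and brown fat, and PPARδ for a similar role in many tissues. RXRs bind retinoids such as 9-cis retinoic acid and also pair with the retinoic acid, thyroid hormone, vitamin D and liver X receptors.

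Total counts ran from 14056200 to 56282582 per library. Levels are CPM, read counts relative to the TMM-scaled library total, given per library or as mean ± SD (n = 3). Differences are log2 fold changes ± standard error (SE), called at a Benjamini-Hochberg adjusted p under 0.05 from edgeR's quasi-likelihood test. The labels do not say whether a group's libraries were grown as separate cultures, so p-values measure only the spread between libraries, which may be technical. The labels call the cells adipocyte progenitors, but all 10 adipocyte markers looked for had reads, and their summed level was 12366 to 13951 CPM in vehicle. The 8 progenitor markers summed to 721 to 766 CPM, the 6 smooth muscle and myofibroblast markers to 261 to 269 CPM and the 6 leukocyte markers to 2.78 to 3.09 CPM. The ribosomal RNA precursor Rn45s took 8.50% to 8.57% of counts in vehicle and 4.15% to 5.79% in FSK3D, where the library S12 had the highest share.

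On GRCm38 all 6 genes lie on the plus strand. GENCODE vM21 places Ppara on chromosome 15 (85734983 to 85802819), Ppard on chromosome 17 (28232700 to 28301474) and Pparg on chromosome 6 (115360951 to 115490399). Rxra lies on chromosome 2 (27676440 to 27762957), Rxrb on chromosome 17 (34031812 to 34038399) and Rxrg on chromosome 1 (167598384 to 167639623). Of these genes 1, Pparg, overlaps another annotated gene, the antisense RNA Gm44079, which shares 0 exonic bases with it. The counts are sums over all transcripts of a gene. They do not separate the Pparg transcripts that begin at the upstream starts from those of the downstream start, which encode the PPARγ1 and the longer, fat-enriched PPARγ2 protein.

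RefSeq (GRCm38.p6) lists 11 starts for the 6 genes. The 250 bases before a start are shown for Ppara and Rxrg, the genes of each family that changed most under rosiglitazone, and for an upstream and the downstream start of Pparg, whose products the counts add together. All are on the plus strand and are printed 5′ to 3′. Capitals mark TGACG, the core of the cyclic AMP response element, or AGGTCA, the hexamer bound by nuclear receptors, on either strand.
Ppara, chr15:85735526-85735775: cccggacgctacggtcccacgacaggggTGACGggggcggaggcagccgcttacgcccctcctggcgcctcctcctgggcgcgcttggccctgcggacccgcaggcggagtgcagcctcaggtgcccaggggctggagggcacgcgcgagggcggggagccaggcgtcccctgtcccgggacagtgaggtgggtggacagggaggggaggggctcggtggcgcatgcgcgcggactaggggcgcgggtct
Rxrg upstream start, chr1:167598112-167598361: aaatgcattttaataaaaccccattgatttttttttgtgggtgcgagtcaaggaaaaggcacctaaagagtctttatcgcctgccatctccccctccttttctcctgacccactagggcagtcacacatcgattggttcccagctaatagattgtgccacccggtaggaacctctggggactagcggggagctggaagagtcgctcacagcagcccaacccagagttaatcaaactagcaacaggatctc
Rxrg downstream start, chr1:167618015-167618264: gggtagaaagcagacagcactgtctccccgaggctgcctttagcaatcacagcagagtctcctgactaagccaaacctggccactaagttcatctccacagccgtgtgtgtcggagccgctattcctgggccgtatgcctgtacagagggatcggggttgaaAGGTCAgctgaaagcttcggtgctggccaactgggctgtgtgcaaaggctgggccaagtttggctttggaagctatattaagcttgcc
Pparg upstream start, chr6:115360894-115361143: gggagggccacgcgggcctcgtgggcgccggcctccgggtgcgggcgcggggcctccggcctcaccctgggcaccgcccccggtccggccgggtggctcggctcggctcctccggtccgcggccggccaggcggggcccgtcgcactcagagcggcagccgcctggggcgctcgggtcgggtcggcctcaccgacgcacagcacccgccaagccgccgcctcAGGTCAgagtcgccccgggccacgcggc
Pparg downstream start, chr6:115421816-115422065: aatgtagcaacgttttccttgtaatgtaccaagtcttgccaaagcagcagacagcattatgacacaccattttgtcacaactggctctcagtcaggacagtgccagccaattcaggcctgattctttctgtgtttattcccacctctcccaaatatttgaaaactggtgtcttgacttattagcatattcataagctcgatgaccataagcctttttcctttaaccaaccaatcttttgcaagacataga
The Ppara window held TGACG 222 bases before the start, and the Rxrb window of the upstream start held it on the other strand. These were 2 of 11 windows, against 17.9% of 32536 windows of the same length over all genes. The hexamer AGGTCA, a search added after the windows had been seen, was in 4 of 11 windows and in 4567 of the 32536. It lay 88 bases before the downstream Rxrg start, 28 bases before the upstream Pparg start shown, in another Pparg window and, on both strands, in the downstream Rxra window. On either strand, the full element TGACGTCA (which contains TGACG, 1.56% of all windows), the C/EBP palindrome TTGCGCAA (0.166%) and a PPAR element of AGGTCA, any base and AGGTCA again (0.0338%) were in 0 of 11. These are matches of letters, not bound sites.

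In vehicle cells Pparg was the most abundant PPAR mRNA and Rxra the most abundant RXR mRNA. Per kilobase of the deposited gene length, Pparg stood at 84.9 ± 5.13 CPM per kilobase, Ppard at 9.89 ± 0.101 and Ppara at 3.04 ± 0.165. Pparg thus made up 86.8% ± 0.680 of PPAR counts per kilobase. Rxra stood at 31.3 ± 0.934 CPM per kilobase, Rxrb at 10.4 ± 0.0436 and Rxrg at 3.87 ± 0.244, and Rxra made up 68.7% ± 0.903 of the RXR sum. The order of Ppara and Ppard rests on the length used. The deposited lengths are 7528 bases for Ppara and 3218 for Ppard, whereas the GENCODE exons span 3836 and 7514 bases, and with those Ppara (5.97) stood above Ppard (4.23 CPM per kilobase). Pparg and Rxra led their families in all 5 groups with both lengths. Rxrg was below Rxrb in all 5 groups with the deposited lengths, but in Rosi3D with GENCODE lengths it was level with it (21.9% ± 0.542 and 21.5% ± 0.220 of the RXR sum).

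**Figure D1:**
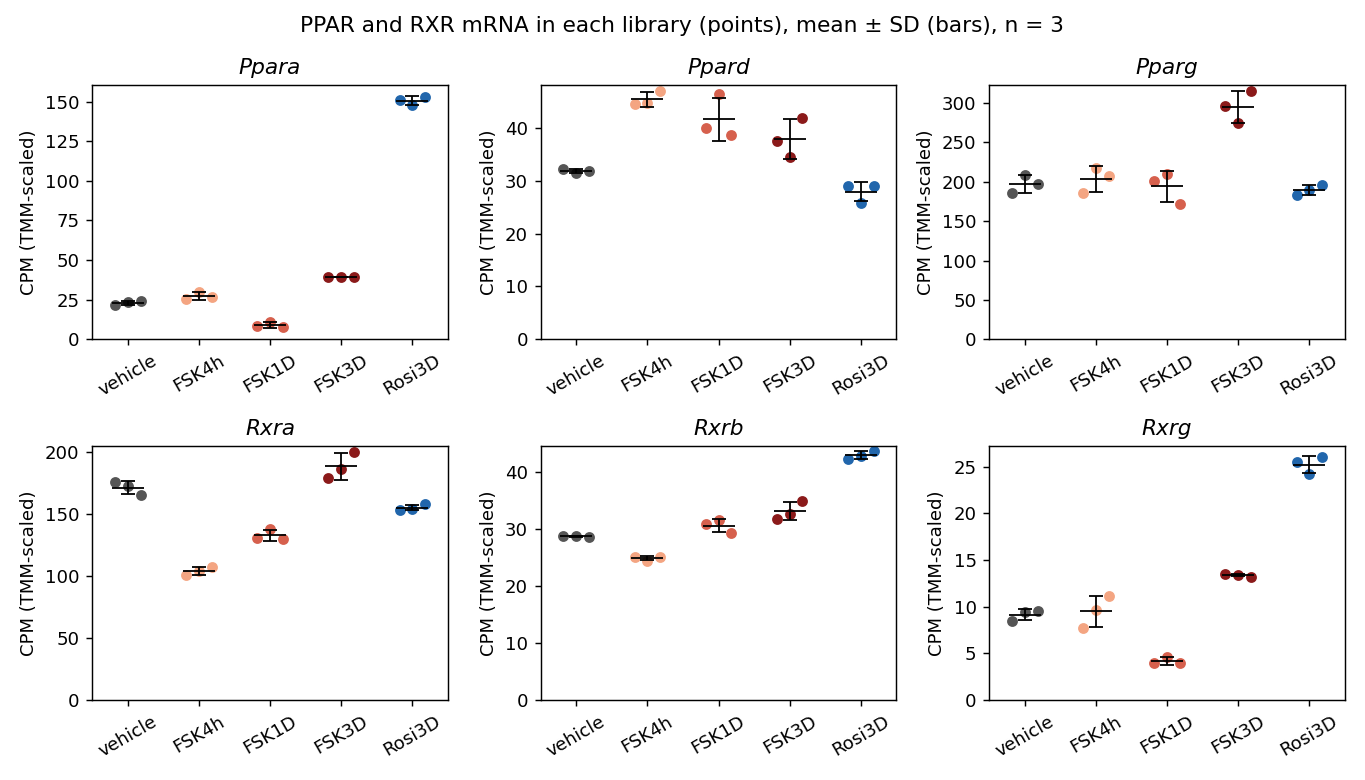
Level of each receptor mRNA (TMM-scaled CPM, vertical axes from 0) in the 15 libraries by group. Points are libraries and bars are mean ± SD of 3; Ppara reaches 148 to 153 CPM in Rosi3D, whereas Pparg is above the other groups in FSK3D.

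Ppara had the widest range of the 6. It stood at 21.5, 23.3 and 23.9 CPM in vehicle, at 25.1, 30.1 and 27.0 in FSK4h and at 8.48, 10.8 and 7.62 in FSK1D. In FSK3D it was at 39.0, 39.4 and 39.3 CPM and in Rosi3D at 151, 148 and 153. No 2 groups overlapped, in the order FSK1D, vehicle, FSK4h, FSK3D and Rosi3D. Rosiglitazone raised Ppara 6.58-fold (2.72 ± 0.075, adjusted p = 1.17e-24), which ranked 156 of 14421 genes by absolute log2 change. Forskolin lowered it at 1 day (-1.35 ± 0.089, adjusted p = 1.46e-14) and raised it at 3 days (0.78 ± 0.077, adjusted p = 2.48e-10). The rise at 4 h (0.25 ± 0.078, adjusted p = 0.00552) was not called with library size alone (0.061, adjusted p = 0.499). From 1 day to 3 days of forskolin Ppara rose 4.37-fold (2.13 ± 0.087, adjusted p = 9.92e-20). The FSK1D cells also had the lowest sum of adipocyte markers (9496 to 10755 CPM) and of smooth muscle and myofibroblast markers (27.2 to 29.5 CPM), and the part of either in this change was not tested.

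Ppard was highest early under forskolin and lowest under rosiglitazone. Its call was opposite to that of Ppara in FSK1D and Rosi3D, and in the same direction in FSK4h and FSK3D. It stood at 32.1, 31.5 and 31.8 CPM in vehicle, at 44.6, 44.6 and 47.0 in FSK4h and at 39.9, 46.3 and 38.5 in FSK1D. In FSK3D it was at 37.5, 34.4 and 41.9 CPM and in Rosi3D at 29.0, 25.8 and 29.0. The 3 forskolin groups lay above all vehicle libraries but overlapped from one time to the next. Ppard rose at 4 h (0.51 ± 0.074, adjusted p = 3.23e-07), at 1 day (0.39 ± 0.075, adjusted p = 6.59e-05) and at 3 days (0.26 ± 0.076, adjusted p = 0.00383). Neither the step from 4 h to 1 day (-0.13 ± 0.073, adjusted p = 0.141) nor that from 1 day to 3 days (-0.12 ± 0.075, adjusted p = 0.174) was called, but FSK3D was below FSK4h (-0.25 ± 0.074, adjusted p = 0.00357). The steps were called without FSK1D S8 (-0.21, adjusted p = 0.0227) and without FSK3D S12 (-0.22, adjusted p = 0.0259), and the drop from 4 h to 3 days was lost with library size alone (-0.07, adjusted p = 0.382). Rosi3D was lower than vehicle by a margin at the threshold (-0.18 ± 0.076, adjusted p = 0.0368), and the call was lost without any of the 6 libraries of the pair (adjusted p = 0.0526 to 0.238).

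Pparg, the receptor that rosiglitazone binds, was called against vehicle in FSK3D alone. It stood at 185, 209 and 197 CPM in vehicle, at 186, 218 and 207 in FSK4h and at 201, 209 and 172 in FSK1D. In Rosi3D it was at 183, 190 and 195 CPM, and in FSK3D at 296, 274 and 316. The first 4 of these groups overlapped, and all FSK3D libraries lay above them. It was higher in FSK3D than in vehicle (0.58 ± 0.071, adjusted p = 7.05e-07) and than in Rosi3D (0.64 ± 0.071, adjusted p = 2.53e-07). The differences from vehicle were 0.04 ± 0.071 in FSK4h (adjusted p = 0.613), -0.02 ± 0.071 in FSK1D (adjusted p = 0.849) and -0.06 ± 0.071 in Rosi3D (adjusted p = 0.487). With library size alone the FSK4h difference was negative and called (-0.15, adjusted p = 0.0476).

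Rxra, the main RXR partner of PPARγ in fat cells, was lowest at 4 h of forskolin and regained its level by 3 days. It stood at 176, 172 and 166 CPM in vehicle, at 101, 104 and 107 in FSK4h and at 131, 138 and 130 in FSK1D. In FSK3D it was at 179, 186 and 200 CPM and in Rosi3D at 154, 154 and 158. The 5 groups did not overlap, in the order FSK4h, FSK1D, Rosi3D, vehicle and FSK3D, of which FSK1D against Rosi3D was not tested. Rxra fell at 4 h (-0.72 ± 0.047, adjusted p = 4.71e-15) and at 1 day (-0.36 ± 0.047, adjusted p = 7.43e-08), and rose from 4 h to 1 day (0.35 ± 0.048, adjusted p = 1.03e-07) and from 1 day to 3 days (0.50 ± 0.047, adjusted p = 5.57e-11). The excess over vehicle at 3 days was small (0.14 ± 0.047, adjusted p = 0.0124) and was lost without FSK3D S12 (0.10, adjusted p = 0.0970). Rosi3D was below vehicle (-0.14 ± 0.047, adjusted p = 0.00911), a call lost without vehicle S1 (adjusted p = 0.0984), Rosi3D S13 (0.0584) or Rosi3D S14 (0.0545).

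Rxrb, which is expressed in most tissues, was highest under rosiglitazone. It stood at 28.9, 28.8 and 28.6 CPM in vehicle, at 25.1, 24.5 and 25.1 in FSK4h and at 30.9, 31.6 and 29.3 in FSK1D. In FSK3D it was at 31.8, 32.8 and 35.0 CPM and in Rosi3D at 42.3, 42.9 and 43.7. Rosi3D lay above every other library (0.58 ± 0.064 against vehicle, adjusted p = 1.31e-09). The fall at 4 h (-0.21 ± 0.066, adjusted p = 0.00772) and the rise at 3 days of forskolin (0.21 ± 0.066, adjusted p = 0.00775) were called, the latter not without FSK3D S12 (0.17, adjusted p = 0.0552). FSK1D missed the threshold against vehicle (0.09 ± 0.066, adjusted p = 0.300), as did FSK3D against FSK1D (0.12 ± 0.066, adjusted p = 0.132), although neither pair overlapped.

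Rxrg, known mainly from muscle and brain, followed the same order of groups as Ppara. It stood at 8.49, 9.42 and 9.54 CPM in vehicle, at 7.73, 9.63 and 11.1 in FSK4h and at 3.97, 4.66 and 3.94 in FSK1D. In FSK3D it was at 13.5, 13.4 and 13.2 CPM and in Rosi3D at 25.5, 24.2 and 26.0. Vehicle and FSK4h overlapped (0.05 ± 0.11, adjusted p = 0.747), and no other groups did. Rosiglitazone raised it 2.76-fold (1.47 ± 0.11, adjusted p = 5.92e-14). Forskolin lowered it at 1 day (-1.13 ± 0.13, adjusted p = 4.56e-09) and raised it at 3 days (0.55 ± 0.11, adjusted p = 1.03e-04), a 3.20-fold rise from 1 day to 3 days (1.68 ± 0.13, adjusted p = 2.44e-13).

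**Figure D2:**
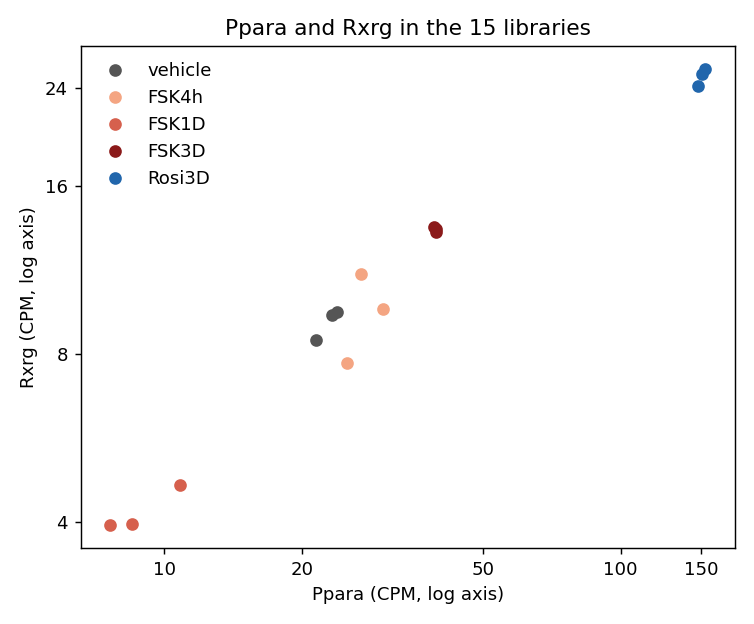
Rxrg level against Ppara level (CPM, both axes logarithmic) in the 15 libraries, with 1 point per library coloured by group. The FSK1D libraries are lowest in both genes (Rxrg 3.94 to 4.66 CPM) and the Rosi3D libraries highest (24.2 to 26.0 CPM).

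Counted by comparison, 2 of the 6 receptors were higher and 2 lower in FSK4h than in vehicle, where 59.0% of all tested genes were called (28.4% higher and 30.7% lower). In FSK1D 1 was higher and 3 were lower, against 40.2% of all genes (19.5% higher and 20.7% lower). In FSK3D all 6 were higher, against 52.9% of all genes (25.9% higher and 27.0% lower). That count was 6 with each alternative scaling, filter and tool, but 3 without FSK3D S12, the library of that group with the most Rn45s, when Ppara, Pparg and Rxrg were still called. In Rosi3D 3 were higher and 2 lower, against 60.6% of all genes (28.6% higher and 32.0% lower), and 3 or 4 of the 6 were called when any library of the pair was left out. All 4 comparisons share the vehicle libraries. Markers moved in FSK3D as well. Of the 10 adipocyte markers 9 were higher than in vehicle and 1 was lower (20455 to 21395 CPM in sum), and of the 6 smooth muscle and myofibroblast markers 1 was higher and 4 were lower (73.7 to 79.98 CPM). The part of either in the receptor changes was not tested.

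Between forskolin times, 2 receptors were higher and 2 lower at 1 day than at 4 h, where 57.3% of all genes were called (28.4% higher and 28.9% lower). From 1 day to 3 days 4 were higher and 0 lower, against 51.0% of all genes (25.2% higher and 25.8% lower), and the 2 not called, Ppard and Rxrb, had an unadjusted p of 0.109 and 0.0785. From 4 h to 3 days 5 were higher and 1, Ppard, lower, against 68.5% of all genes (35.0% higher and 33.5% lower). With 6 genes a count is a coarse measure, so no more is read from it.

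**Figure D3:**
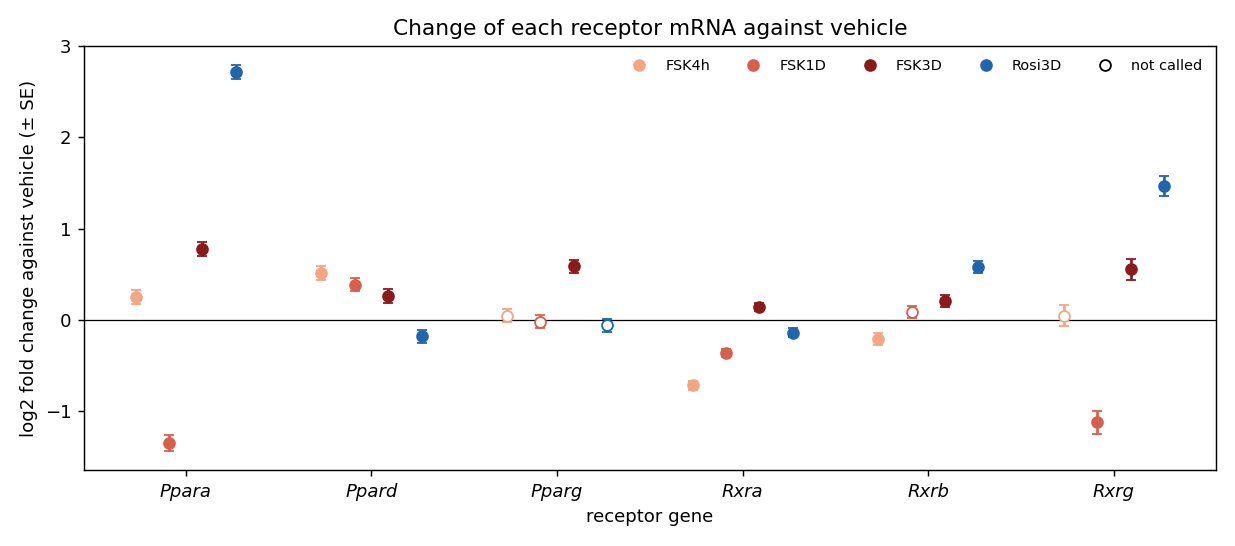
Change of each receptor mRNA against vehicle (vertical axis, log2 fold change; bars, ± SE) for the 4 treatments, with open points not called. Ppara spans -1.35 in FSK1D to 2.72 in Rosi3D, while the 3 open Pparg points lie within 0.06 of 0.

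At 3 days the agents were compared directly, and all 6 receptors differed, 3 in each direction (43.1% of all genes were called, 22.5% higher and 20.7% lower in FSK3D). Forskolin cells had more Pparg, Ppard (0.45 ± 0.076, adjusted p = 1.00e-05) and Rxra (0.28 ± 0.047, adjusted p = 6.80e-06). Rosiglitazone cells had more Ppara (-1.94 ± 0.072 for FSK3D minus Rosi3D, adjusted p = 6.41e-21), Rxrg (-0.91 ± 0.11, adjusted p = 7.96e-09) and Rxrb (-0.37 ± 0.065, adjusted p = 1.52e-05). Libraries of the pair did not overlap for any of the 6. The share of all tested genes without overlap was not counted, so nothing is read from this. Marker lists differed between the same cells. The 10 adipocyte markers summed to 20455 to 21395 CPM in FSK3D and 17539 to 18236 in Rosi3D. Counted by gene the direction was the other, with 2 of these 10 called higher and 6 lower in FSK3D (median log2 change -0.51). The 8 progenitor markers summed to 714 to 782 CPM in FSK3D and 379 to 419 CPM in Rosi3D. None of either list was at 0 in all libraries. Of the tested progenitor markers 6 of 6 were lower in Rosi3D than in vehicle, and the part of this in the receptor changes was not tested. In such bulk RNA a change in the share of cells and a change in mRNA per cell cannot be told apart.

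Shares within each family moved with the treatments, as a description without a test. Ppara made up 3.11% ± 0.120 of PPAR counts per kilobase in vehicle, 1.21% ± 0.125 in FSK1D, 3.63% ± 0.259 in FSK3D and 18.2% ± 0.409 in Rosi3D. With GENCODE exon lengths the Ppara share was 7.76% in vehicle and 36.7% in Rosi3D, so its size but not its direction rests on the length. The Pparg share was 74.0% ± 0.883 in Rosi3D, where its own level was not called different from vehicle. In the RXR family Rxrg made up 8.50% ± 0.647 in vehicle, 4.77% ± 0.290 in FSK1D and 19.6% ± 0.504 in Rosi3D, and Rxra 68.7% ± 0.903 and 52.0% ± 0.250 in vehicle and Rosi3D. The PPAR sum per kilobase was 2.15 ± 0.123 times the RXR sum in vehicle, 3.29 ± 0.179 times in FSK4h, where Rxra was lowest, and 2.02 ± 0.0252 times in Rosi3D. With GENCODE lengths it was 1.81 ± 0.109 times in vehicle, 2.79 ± 0.163 in FSK4h and 2.13 ± 0.0203 in Rosi3D, so FSK4h was highest with both lengths, whereas the order of vehicle and Rosi3D turned with the length.

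**Figure D4:**
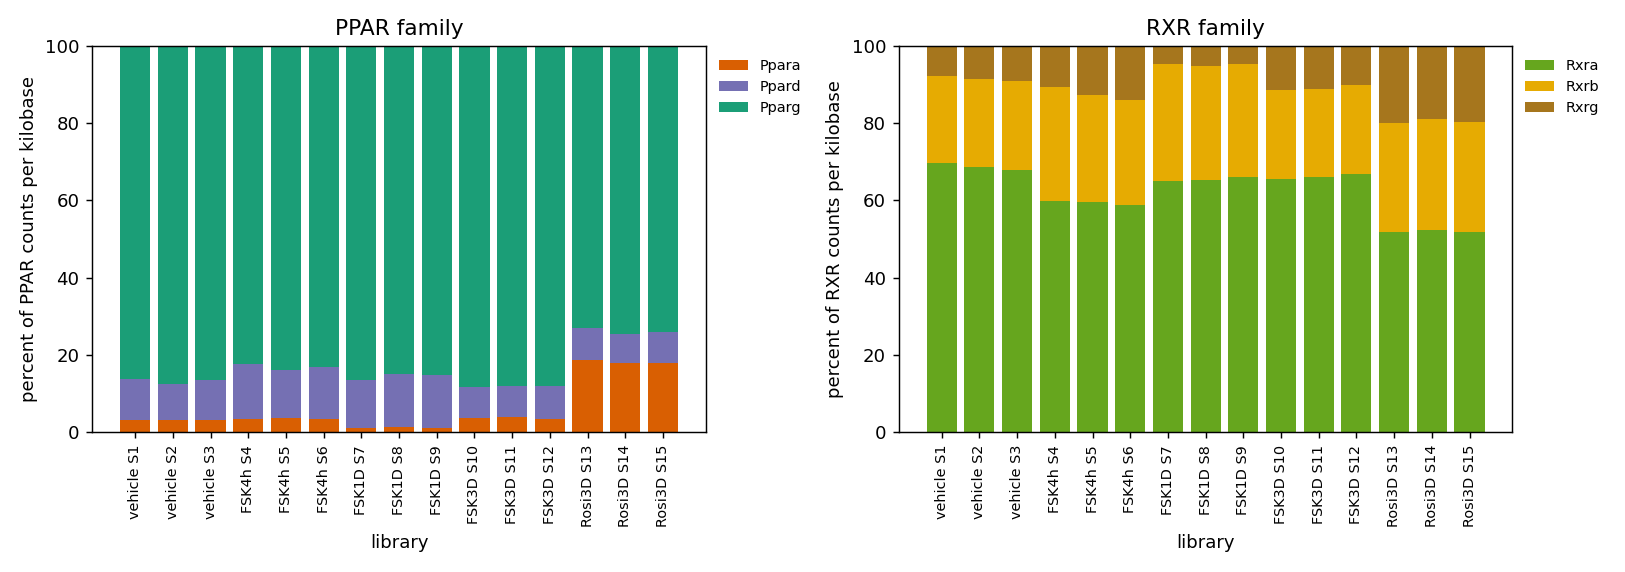
Share of each subtype in its family (percent of counts per kilobase of deposited length) in each of the 15 libraries, PPAR on the left and RXR on the right. Ppara takes 17.9% to 18.6% of the PPAR sum in the Rosi3D libraries and at most 3.91% in any other, and Rxrg 19.0% to 19.9% of the RXR sum there.

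List counts are to be read against all tested genes, of which 28.4% rose and 30.7% fell in FSK4h, 19.5% and 20.7% in FSK1D, 25.9% and 27.0% in FSK3D, and 28.6% and 32.0% in Rosi3D. Among 18 coactivators of nuclear receptors 8 rose and 4 fell in FSK4h, 0 rose and 10 fell in FSK1D, 5 rose and 8 fell in FSK3D and 4 rose and 7 fell in Rosi3D. Their median log2 changes were 0.11, -0.15, -0.09 and -0.03, against -0.03, -0.02, 0.01 and -0.01 over all tested genes. Scaling by library size only, which shifted the median gene by -0.19 in FSK4h and moved the share of higher calls among all genes from 48.1% to 27.3%, gave 6 higher and 8 lower there. Ppargc1a and Ppargc1b encode the inducible coactivators PGC-1α and PGC-1β. Ppargc1a rose in FSK4h (1.22 ± 0.078), fell in FSK1D (-0.79 ± 0.086) and rose in FSK3D (0.64 ± 0.081) and Rosi3D (1.69 ± 0.078). Ppargc1b fell in FSK1D (-0.98 ± 0.11) and rose in FSK3D (0.66 ± 0.098) and Rosi3D (1.94 ± 0.094). Its level was 33.8 ± 1.61 CPM in FSK4h against 24.8 ± 2.57 in vehicle. Med14, a Mediator subunit, rose in FSK4h (0.65 ± 0.051) and fell in Rosi3D (-0.66 ± 0.052).

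Of 12 tested corepressors 2 rose and 3 fell in FSK4h (2 and 7 by library size), 5 rose and 3 fell in FSK1D, 5 rose and 2 fell in FSK3D, and 5 rose and 4 fell in Rosi3D. Their medians were 0.02, 0.00, -0.02 and 0.06. Nrip1, which encodes the corepressor RIP140, fell in FSK1D (-0.89 ± 0.058) and rose in Rosi3D (0.72 ± 0.056). Ncor1, a docking protein for histone deacetylase, also rose in Rosi3D (0.70 ± 0.043). Wwtr1, or TAZ, which can restrain PPARγ, rose in FSK4h (0.73 ± 0.046) and in Rosi3D (0.83 ± 0.046).

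Factors known to act on the Pparg gene moved in both directions, with 9 higher and 12 lower of 26 in FSK4h, 8 and 11 in FSK1D, 15 and 7 in FSK3D and 13 and 10 in Rosi3D. Their medians were -0.14, -0.11, 0.26 and 0.09, and the shares over all genes were 28.4% higher and 30.7% lower in FSK4h and 19.5% and 20.7% in FSK1D. Cebpb, an early activator of Pparg, stood at 85.6 ± 3.29 CPM in vehicle and rose in FSK4h (1.60 ± 0.12), FSK1D (1.06 ± 0.12) and FSK3D (0.55 ± 0.12). Cebpd, which acts at the same stage, rose in FSK1D (2.30 ± 0.099) and fell in Rosi3D (-1.15 ± 0.12). Cebpa sustains Pparg in mature adipocytes. It rose in FSK3D (0.68 ± 0.10), where Pparg rose, and in Rosi3D (0.69 ± 0.10), where Pparg was not called. Klf15, a factor of adipocyte differentiation, fell in FSK4h (-1.93 ± 0.14) and rose in FSK3D (1.48 ± 0.11). Srebf1, which encodes the lipogenic factor SREBP-1, likewise fell in FSK4h (-1.23 ± 0.096) and rose in FSK3D (0.57 ± 0.094). The repressors of adipogenesis Zfp521 and Gata2 fell, Zfp521 in FSK4h (-1.96 ± 0.10) and FSK1D (-1.07 ± 0.096), and Gata2 in FSK3D (-1.39 ± 0.19) and Rosi3D (-1.55 ± 0.18). Among 14 genes for modifiers of the PPARγ protein 5 rose and 7 fell in FSK4h, and 2 to 3 rose and 2 to 4 fell in the other treatments, with medians from -0.10 to 0.04. Senp2, a SUMO protease, rose in FSK4h (1.64 ± 0.049), as did the ubiquitin ligase Siah2 (1.38 ± 0.070).

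Most known targets of PPARγ in adipocytes rose in both 3-day treatments. Of 29 tested, 27 rose and 0 fell in FSK3D (median 0.80) and 26 rose and 0 fell in Rosi3D (median 1.31), where 25.9% and 28.6% of all genes were called higher. In FSK1D 9 rose and 12 fell (median -0.16). In FSK4h 14 rose and 6 fell (median 0.20), whereas scaling by library size gave 8 and 12 (median 0.00). The fatty acid binding protein gene Fabp4 stood at 702 ± 47.8 CPM in vehicle, 1054 ± 29.7 in FSK3D and 3140 ± 391 in Rosi3D (0.59 ± 0.12 and 2.16 ± 0.12 against vehicle). In Rosi3D the fatty acid transporter Cd36 rose by 2.93 ± 0.084, the lipid droplet protein gene Cidea by 3.17 ± 0.20 and the acyltransferase gene Agpat2 by 2.26 ± 0.060. Pck1, which supplies glycerol for triglyceride, rose in FSK4h (2.09 ± 0.074) and FSK3D (1.75 ± 0.075). Adipoq, which encodes the hormone adiponectin, fell in FSK1D (-1.14 ± 0.047) and rose in Rosi3D (0.41 ± 0.046). Olr1, a receptor for oxidized lipoprotein, rose in FSK4h (3.54 ± 0.20), FSK1D (3.64 ± 0.20) and FSK3D (1.80 ± 0.24). Between the 3-day treatments 22 of the 29 were lower and 3 higher in FSK3D, against 20.7% and 22.5% of all genes. Of the 29, the 8 genes Fabp4, Adipoq, Plin1, Cidec, Lpl, Pnpla2, Retn and Slc2a4 also stand among the adipocyte markers.

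Oxidation and ketogenic genes known as targets of PPARα and PPARδ had 28 tested members. In Rosi3D 27 rose and 1 fell (median 1.95), and in FSK3D 20 rose and 2 fell (median 0.83). In FSK1D 11 rose and 3 fell (median 0.11), and in FSK4h 15 rose and 5 fell (median 0.18), or 10 and 8 by library size (median -0.01). In Rosi3D Acaa1b, a peroxisomal thiolase gene with a near-identical copy that makes its counts uncertain, rose by 4.64 ± 0.076, and the lipid droplet protein gene Plin5 by 3.34 ± 0.17. Pdk4, a brake on glucose oxidation, rose in FSK4h (1.64 ± 0.057), FSK3D (0.79 ± 0.057) and Rosi3D (2.19 ± 0.058), and its difference in FSK1D was 0.02 ± 0.058. Angptl4, a secreted inhibitor of lipoprotein lipase, rose in FSK4h (1.61 ± 0.059) and Rosi3D (1.89 ± 0.060) and fell in FSK3D (-0.53 ± 0.060). Cpt1b, the muscle form of the enzyme that admits fatty acids to mitochondria, stood at 0.197 ± 0.0932 CPM in vehicle and 1.34 ± 0.238 in Rosi3D (2.71 ± 0.48). The droplet coat protein gene Plin2 rose in FSK4h (2.31 ± 0.051) and Rosi3D (2.00 ± 0.051). Ucp1, the uncoupling protein of thermogenic fat, stood at 0.0753 ± 0.0829 CPM in vehicle and 8.42 ± 0.648 in FSK4h (6.68 ± 0.35). Vnn1, a pantetheinase gene named after its value was seen, was the 1 that fell in Rosi3D (-1.37 ± 0.24). FSK3D was below Rosi3D for 24 of the 28 and above it for 2, against 20.7% and 22.5% of all genes. The 2 were Ucp1 (2.57 ± 0.24) and, named after its value was seen, Ucp2 (0.42 ± 0.069).

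**Figure D5:**
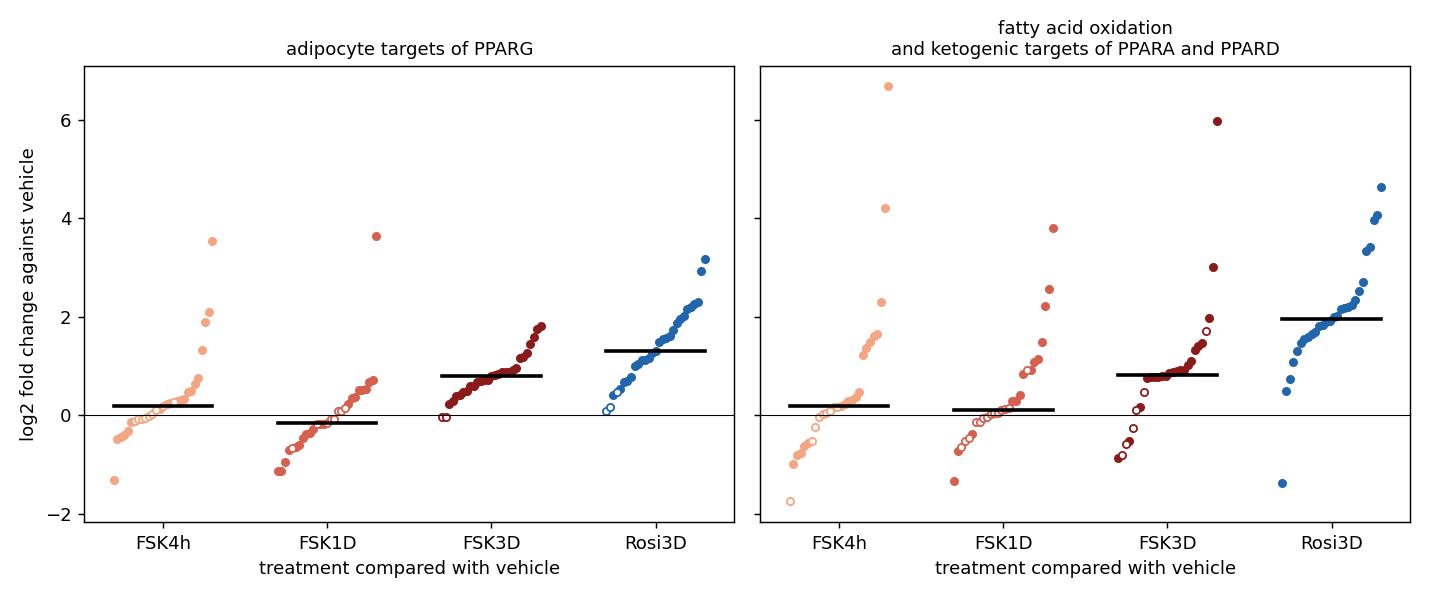
Log2 fold change against vehicle of each tested gene of the PPARγ adipocyte targets (left, 29 genes) and of the oxidation and ketogenic targets (right, 28 genes), sorted within each treatment, with black lines at the medians and open points not called. The medians in Rosi3D are 1.31 and 1.95, against 0.80 and 0.83 in FSK3D.

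Of 11 tested genes for other receptors that pair with RXR, 3 rose and 4 fell in FSK4h (3 and 6 by library size), 7 rose and 1 fell in FSK1D, 7 rose and 1 fell in FSK3D, and 4 rose and 5 fell in Rosi3D. Their medians were -0.11, 0.35, 0.30 and -0.06. Vdr, the vitamin D receptor gene, rose in FSK4h (3.15 ± 0.091) to 176 ± 22.1 CPM and fell in Rosi3D (-1.26 ± 0.11) to 8.23 ± 0.742 CPM. The orphan receptor genes Nr4a1 and Nr4a2 rose in FSK4h (3.69 ± 0.088 and 3.19 ± 0.12). Nr1h3, which encodes the liver X receptor α and is also listed as a PPARγ target, rose in FSK3D (0.81 ± 0.092) and Rosi3D (1.62 ± 0.090). The retinoic acid receptor genes Rara and Rarg fell in Rosi3D (-1.07 ± 0.11 and -1.20 ± 0.083). Thrb, a thyroid hormone receptor gene, fell in FSK4h (-1.02 ± 0.093).

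Genes of retinoid handling, which supply or remove ligands of RXR and of the retinoic acid receptors, had 16 tested members of 23. Of these 6 rose and 6 fell in FSK4h (5 and 7 by library size), 5 and 5 in FSK1D, 9 and 4 in FSK3D and 7 and 4 in Rosi3D, with medians of 0.20, 0.06, 0.42 and 0.63. Cyp26b1, which degrades retinoic acid, stood at 2.09 ± 0.208 CPM in vehicle and rose in FSK4h (3.70 ± 0.13) and Rosi3D (1.97 ± 0.14). Rdh10, which oxidizes retinol, rose in FSK4h (2.63 ± 0.059). Crabp2, which carries retinoic acid to its receptors, rose in FSK4h (1.44 ± 0.16) and fell in Rosi3D (-2.82 ± 0.23). Among 16 tested genes for makers and carriers of fatty acid ligands 7 rose and 1 fell in FSK4h, 6 and 2 in FSK1D, 8 and 4 in FSK3D and 8 and 5 in Rosi3D, with medians of 0.24, 0.07, 0.54 and 0.53. Ptgs2, or cyclooxygenase 2, rose in FSK4h (2.66 ± 0.14) and fell in FSK3D (-1.15 ± 0.14) and Rosi3D (-2.21 ± 0.15). Hpgds, a prostaglandin D synthase gene, rose in Rosi3D (2.34 ± 0.18).

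The genes most like each receptor were sought by Pearson's r of log2(CPM + 1) over the 15 libraries, among genes of at least 1 CPM on average. The libraries form 5 groups of 3, so r largely reflects the group means, and it is a description. Ppargc1b was most like Ppara (r = 0.990), followed by Tmem134 (0.986) and the malate dehydrogenase Mdh1 (0.985). Rxrg was closest to Cpeb3 (0.986), the cardiolipin synthase Crls1 (0.983) and again Tmem134 (0.983). For Rxrb these were the retinal reductase Dhrs3 (0.987), Pigq (0.987) and Tspan15 (0.986). Ppard was nearest to the kinase Pim1 (0.960), 1700017B05Rik (0.959) and Bhlhe40 (0.957), all highest in FSK4h. Rxra was nearest to Deptor (0.976), Pdcd4 (0.972) and the clock-output factor Tef (0.971), all lowest in FSK4h. Pparg was nearest to Spatc1 (0.963), transferrin, Trf (0.947), and Mtss1 (0.941), all 3 highest in FSK3D. Spatc1 stood at 3.99 CPM there against 0.374 to 0.578 in the other groups. It thus met the mean of 1 CPM only through FSK3D, the group where Pparg was also highest, so its rank is partly set by that filter.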

How the data were processed

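RNA of 15 libraries of MAP cells was depleted of ribosomal RNA and sequenced, per the labels' protocols. The deposited values are raw counts of reads for each gene, beside a gene length. Per the submitters' processing notes, fastp, STAR and featureCounts were used with GRCm38 (mm10); the sources used here give no versions, annotation, strand setting or handling of read pairs. More genes had a count of 2 (721 to 907 per library) than of 1 (407 to 539), so mates of a pair may have been counted separately, for which the counts divided by 2 were tried. Columns name the group and a running number S1 to S15, not the labels' replicate, so a column was tied to its group only. Within groups no pair of libraries differed as little as sampling noise (chi-square per degree of freedom 3.20 to 11.8).

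Counts were filtered with filterByExpr (14421 of 24421 genes kept), scaled by TMM and tested with edgeR 4.0.16 in R 4.3.3. The test was quasi-likelihood, robust and two-sided, with 1 mean per group, 10 residual degrees of freedom and 8 comparisons. The procedure was also run on simulated counts. These gave every gene the same spread and changed a small set of genes in Rosi3D alone, so they do not test changes as wide as those seen here. SE is the log2 fold change divided by the square root of F. Alternatives were RLE factors, library size alone, Rn45s removed, no filter, 1 CPM in 3 libraries, DESeq2 1.42.0, only the groups compared, counts divided by 2, and each library of a comparison left out.

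The receptors, gene lists and tests were chosen with earlier results of these data known. All 6 receptors are named in each comparison against vehicle, and from each list genes among the 4 largest called changes at 1 CPM or more, plus targets and regulators fixed by name. Positions come from GENCODE vM21 (GRCm38) and sequences from RefSeq (GRCm38.p6), in which all 6 symbols matched. The lowest receptor count was 103 (Rxrg, FSK1D), and for the scarcer receptors counting error can be as large as the spread between libraries.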

Additional observations from a re-analysis of the deposited data

Results flagged for a closer look

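The changes of the receptors under forskolin differed between times by their own test (edgeR, adjusted over all tested genes). From 4 h to 1 day Ppara (-1.60) and Rxrg (-1.17) fell, and Rxra (0.35) and Rxrb (0.30) rose, where 57.3% of all genes were called. From 1 day to 3 days Ppara (2.13), Rxrg (1.68), Pparg (0.61) and Rxra (0.50) rose (51.0% of all genes). From 4 h to 3 days Ppara (0.52), Pparg (0.54), Rxra (0.86), Rxrb (0.42) and Rxrg (0.51) rose and Ppard (-0.25) fell (68.5% of all genes). These comparisons share libraries with each other and with those against vehicle. Groups of 3 are too small for a test of single outlying libraries.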

How the results depend on the processing

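The number of genes called stayed within 1.5 times the value first given in all 8 comparisons, under every alternative run. The number of receptors called in FSK3D against vehicle (6) was 3 to 6 when a library was left out, the lowest without FSK3D S12, and in Rosi3D against vehicle (5) it was 3 to 4, the lowest without vehicle S1, Rosi3D S13 or Rosi3D S14. Signs turned for differences not called at first. With library size alone, FSK4h against vehicle gave -0.15 for Pparg, which was then called (adjusted p = 0.0476), and -0.15 for Rxrg, and FSK1D against FSK4h gave 0.037 for Ppard and 0.0996 for Pparg. For Pparg in FSK1D against vehicle, RLE factors gave 8.33e-04 and DESeq2 8.29e-04. With a library left out, that difference ran from -0.062 to 0.078, Rxrg in FSK4h against vehicle from -0.071 to 0.20, and Pparg in FSK1D against FSK4h from -0.12 to 0.019. Among recomputed values of single receptors, 641 kept their direction and call, 19 lost the call, 2 gained it in the same direction and 10 changed sign, the called Pparg value among them. The call for Ppard in Rosi3D was also lost with RLE factors, no filter, the 1 CPM filter, DESeq2 and divided counts (adjusted p = 0.0566 to 0.0774). Library size alone moved the share of higher calls among all genes from 49.6% to 68.8% (FSK1D against FSK4h) and from 51.1% to 65.1% (FSK3D against FSK4h). Only libraries of the 2 groups compared were left out in turn. No paired analysis was possible because the columns carry no replicate numbers of the labels. Library S11 of FSK3D, with 14056200 counts, was the shallowest and left 502 counts for Ppard and 196 for Rxrg.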
